A study of Oryza sativa Japonica Group with 9 samples.

Results

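Rice zygotes were compared with fertilized egg cells, the interval around nuclear fusion, on the 6 of 9 arrays whose titles name these stages. The cells came from wild-type plants of the japonica cultivar Katy grown in a greenhouse and pollinated in vivo. The 3 fertilized egg arrays were taken at about 1 hour after pollination (1 to 1.5 in the series text) and the 3 zygote arrays at about 3 hours (2.5 to 3). Each sample pooled about 100 cells freed from ovules without enzymes, and its RNA was amplified in 2 cycles before hybridization to an Affymetrix rice array. The array reads a transcript with a probe set, whose value is a signal intensity. A free-text label field names pollen for the fertilized egg arrays and isolated sperm cells for the zygote arrays. Titles, stage labels and the series text name fertilized egg cells and zygotes, and the groups follow these. The labels call the arrays biological replicates without saying whether plants were shared between them.

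In flowering plants a sperm cell first fuses with the egg cell, and its nucleus then travels to the egg nucleus and merges with it. The young zygote starts with transcripts stored by the egg, some of which are removed while others accumulate, and its first division follows later. The comparison asks which transcripts differed across the hours in which the nuclei meet. With about 100 pooled cells per sample, fewer cells and less RNA per cell cannot be told apart.

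No single probe set passed the threshold. In limma, 0 of 28597 probe sets (0%) had an adjusted p under 0.05, and the smallest adjusted p was 0.325. Without adjustment 1874 probe sets (6.55%) had a p under 0.05, of which 806 (2.82%) were higher and 1068 (3.73%) lower in zygotes. Centring each array on its median turned this split to 160 higher and 1437 lower and moved the median change of all genes from -0.07 to -0.66. The 3 zygote signals all lay outside the 3 fertilized egg signals for 3638 probe sets (12.7%), above them for 1880 (6.57%) and below them for 1758 (6.15%). Among genes, each read by its brightest probe set, the share without overlap was 13.7%. The genes below are therefore given as measured differences that did not pass the adjusted test, and "unadjusted p" is named wherever it is used. All changes are log2(signal + 15), zygote minus fertilized egg, and each gene stands for its brightest probe set unless stated. Genes with an unadjusted p under 0.05 that are named beyond the naming rule were chosen after their values were seen.

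The zygote arrays differed among themselves more than the fertilized egg arrays did. Over kept probe sets the fertilized egg arrays correlated at 0.876 to 0.940 with each other, and the zygote arrays at 0.650 to 0.848. Zygote array 2 had 0.677 to 0.689 with the fertilized egg arrays, while zygote arrays 1 and 3 had 0.796 to 0.903. The median SD of log2 signal was 0.834 in zygotes and 0.499 in fertilized eggs, and 72.3% of probe sets had the larger SD in zygotes. Zygote array 2 also had the highest median signal, 218, against 47.3 to 101 on the other 5. None of 6 array measures (median signal, spike ratio, hybridization spike, 18S rRNA, 3′ to 5′ ratio, share of bright probe sets) had an exact permutation p under 0.2, where 3 arrays against 3 cannot go below 0.1. Their adjusted p values were 0.9. The gene lists used below held 105 genes with an unadjusted p under 0.05, and 40 of them stayed under it whichever single array was left out. Of all 15194 genes, 346 (2.28%) were higher and 778 (5.12%) lower at that unadjusted p. How many of all genes stayed under it was not counted, so the 40 cannot be set against a share. Without zygote array 1, 2 or 3 the p of 22, 27 or 25 of the 105 rose to 0.05 or above. Without fertilized egg array 1, 2 or 3 this was so for 42, 37 or 42. The limits given below for single genes mostly name zygote arrays and do not list every such array. None of the 105 changed direction in a fit that kept its probe set, which their choice by p makes likely.

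Several transcripts of jasmonate signalling stood lower in zygotes than in fertilized eggs. Jasmonate is a lipid hormone of wounding and of flower fertility. JAZ proteins repress its target genes until the receptor COI1 has them degraded, and JAZ genes are themselves induced by the hormone. Of 42 genes on the jasmonate list 33 were kept, 22 of them below 0. At an unadjusted p under 0.05, 10 of the 33 were lower and 0 higher, where 5.12% of all 15194 genes were lower and 2.28% higher. The list's median was -0.41, and that of all genes was -0.07. The list had been chosen with results of these arrays known, so its direction is no independent evidence.

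JAZ7 read 24372, 21918 and 22939 in fertilized eggs and 9324, 4937 and 6851 in zygotes (23076 ± 1233 and 7037 ± 2200, SD, n = 3). The log2 change was -1.76 ± 0.33 (SE; adjusted p = 0.372 by limma), and every zygote array lay below every fertilized egg array. The egg arrays, which took no part in the test, read 2089, 8701 and 3025, so the fertilized egg arrays were the highest of the 3 stages. JAZ3 read 3551, 2057 and 2904 in fertilized eggs and 749.8, 671 and 1187 in zygotes, with a change of -1.70 ± 0.40 (SE). JAZ11, with 13475, 11912 and 11278 against 3980, 3562 and 8300, showed the same order with a change of -1.31. Among the 12 JAZ genes kept, 10 were below 0 and 6 of these had an unadjusted p under 0.05 (JAZ3, JAZ4, JAZ7, JAZ8, JAZ9 and JAZ11), with a family median of -0.90. JAZ4 and JAZ9 had an unadjusted p of 0.0711 and 0.0899 without zygote array 1, and JAZ9 had 0.0557 without zygote array 2. JAZ4 also had 0.103 and 0.119 without fertilized egg array 1 or 2, and JAZ9 had 0.0792 without fertilized egg array 2. In JAZ9 the groups overlapped, at 7073, 9656 and 8035 against 2752, 3310 and 7199. The remaining JAZ genes kept had no unadjusted p under 0.05. JAZ1, named for its bright probe set, read 40017, 24414 and 35661 in fertilized eggs and 24852, 41001 and 48789 in zygotes, and the 95% interval of its change ran from -0.62 to 0.96. JAZ10, named for the same reason, had an interval from -1.27 to 0.17.

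Enzymes upstream of jasmonate were split. PLA2-III, a phospholipase A2, the enzyme class that frees fatty acids from membrane lipids, had the smallest p of all named genes. It read 10899, 9577 and 16141 in fertilized eggs and 2360, 1865 and 3666 in zygotes (12206 ± 3472 and 2630 ± 930, SD, n = 3), a change of -2.23 ± 0.36 (SE; adjusted p = 0.325 by limma) or 4.69-fold. Egg arrays read 9436, 7322 and 6443, so zygotes were lowest of the stages. The single allene oxide cyclase gene, aoc, which closes the ring of the jasmonate precursor, read 20744, 14301 and 17063 against 7948, 3952 and 10488. AOS1, an allene oxide synthase, acts one step before it and read 5799, 2003 and 1317 against 1315, 486 and 1157, where the lowest fertilized egg array and the highest zygote array nearly met. Without zygote array 2 AOS1 had an unadjusted p of 0.0896. Without fertilized egg array 1 it had a change of -0.83 and an unadjusted p of 0.160 by limma. OPR13, of the 12-oxophytodienoate reductase family, read 13685, 12285 and 7459 in fertilized eggs and 3870, 2876 and 4466 in zygotes, a change of -1.55 ± 0.35 (SE; adjusted p = 0.438 by limma). The 4 lipoxygenase genes kept and OPR7 had no unadjusted p under 0.05. LOX5, a lipoxygenase, changed by -0.08, with a 95% interval from -0.83 to 0.68. The receptor genes COI1A and COI1B had changes of 0.00 and 0.74, with intervals from -1.04 to 1.05 and from -0.52 to 2.00.

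**Figure D1:**
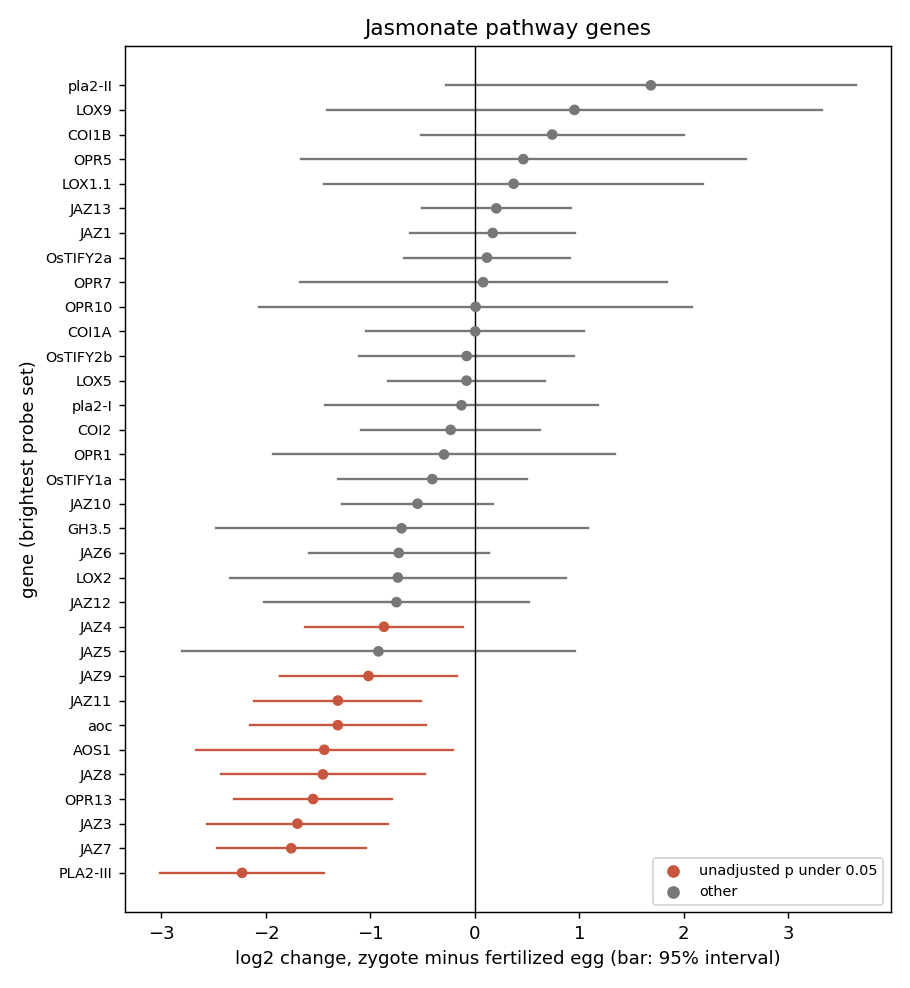
Log2 change (x axis, zygote minus fertilized egg) of the 33 jasmonate pathway genes kept (y axis, brightest probe set each), points with 95% intervals from limma. The 10 coloured genes have an unadjusted p under 0.05 and all lie below 0, while JAZ1 at 0.17 and the dim genes above it have intervals that cross 0.

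The jasmonate median differed between zygote arrays. Against the fertilized egg mean it was -0.61 in zygote array 1, -1.10 in zygote array 2 and -0.10 in zygote array 3. The count of lower genes at an unadjusted p under 0.05 was 9 without zygote array 1, 9 without array 2 and 10 without array 3. The count of higher genes was 1, 1 and 0.

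Some abscisic acid genes and water-stress proteins read lower in zygotes, among a list that lay on both sides of 0. Abscisic acid restrains PP2C phosphatases, which otherwise hold back SnRK2 kinases and the bZIP factors they activate, and dehydrins such as RAB21 are classic targets. Of 93 listed genes 90 were kept, 35 above 0 and 55 below it, with a median of -0.26 against -0.07 for all genes. At an unadjusted p under 0.05, 11 (12.2%) were lower and 1 (1.11%) higher, against 5.12% and 2.28% of all genes. RAB21 read 720.1, 807 and 768 in fertilized eggs and 120.3, 29.2 and 343 in zygotes. RAB16B, a related dehydrin, read 421, 472 and 284 against 49.4, 16.1 and 83.6, and LEA19, of the late embryogenesis abundant proteins, read 874, 814 and 409 against 127, 41.1 and 396. In all 3 genes the groups did not overlap, and their changes were -2.60, -2.78 and -2.19. Without zygote array 2 these changes were -1.82, -2.32 and -1.49. The related RAB16C and RAB16D had changes of -0.25 and 0.65 without separation.

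Transcription factors and phosphatases of the pathway showed differences of the same direction in part. OsbZIP37 read 239, 487 and 877 in fertilized eggs and 12.3, 87.8 and 8.24 in zygotes, a change of -3.59 ± 0.87 (SE; adjusted p = 0.502 by limma). Egg arrays had 462, 368 and 426, so the low level was seen in zygotes. ABF2, an abscisic acid response factor, read 4575, 4359 and 3224 against 1407, 1904 and 2287. PP2C68 read 2342, 2092 and 1362 against 531, 755 and 604, a change of -1.57 ± 0.40 (SE). Of 55 PP2C genes kept 6 (10.9%, against 5.12% of all genes) were lower and 0 higher at an unadjusted p under 0.05. OsPP2C45 stood in the other direction on one probe set, at 4.01, 60.9 and 37.5 in fertilized eggs and 1993, 526 and 739 in zygotes. Its change there was 4.47 ± 0.79 (SE; adjusted p = 0.364 by limma), but its brighter probe set changed by 0.01. The dimmer probe set passed the filter only through its zygote signals, and that of OsbZIP37 only through its fertilized egg signals. OsSAPK9, an SnRK2 kinase gene, was the 1 listed gene that was higher, at 802, 512 and 325 against 874, 2265 and 936, and without zygote array 2 its p was 0.115. Without zygote array 2 the list's median moved from -0.26 to 0.03, with 9 genes lower and 4 higher.

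Auxin genes lay on both sides of 0. Auxin guides the axis of plant embryos. Aux/IAA proteins repress it, ARF factors carry out its transcription, and ILL hydrolases free it from stored conjugates. Of 51 genes kept 3 (5.88%) were higher and 4 (7.84%) lower at an unadjusted p under 0.05, against 2.28% and 5.12% of all genes, with a median of 0.07. IAA10 had a gap without overlap, with 285, 242 and 275 in fertilized eggs and 782, 2568 and 2218 in zygotes, a change of 2.56 ± 0.52 (SE; adjusted p = 0.422 by limma), or 5.91-fold. Egg arrays read 710.0, 1204 and 718, above all fertilized egg arrays, and 2 of them lay below every zygote array. ARF7 read 562, 1046 and 1118 against 2318, 3174 and 1513, and ARF3 read 639.5, 1001 and 431 against 1185, 1736 and 1323. Both were higher in all 3 zygote arrays, and without zygote array 2 ARF3 had an unadjusted p of 0.0602. The conjugate hydrolase gene ILL2 read 1249, 1311 and 9055 in fertilized eggs and 113, 64.5 and 425 in zygotes, a change of -3.91 ± 0.81 (SE; adjusted p = 0.422 by limma). IAA8 and IAA15 were lower by unadjusted p, with changes of -2.06 and -1.05. IAA8 had -1.54 (unadjusted p of 0.103 by limma) without zygote array 1, and IAA15 had -0.61 (unadjusted p of 0.103 by limma) without zygote array 2.

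Small heat shock proteins, chaperones that bind unfolded proteins, stood mostly lower in zygotes, with the arrays far apart. The whole heat shock list had 46 genes kept and a median of -0.52. At an unadjusted p under 0.05, 6 (13.0%) were lower and 1 (2.17%) higher, against 5.12% and 2.28% of all genes. Among 17 small heat shock protein genes 15 were below 0 and 4 (23.5% of the 17) had an unadjusted p under 0.05. HSP18.0 read 8951, 5256 and 8136 in fertilized eggs and 1334, 3317 and 1728 in zygotes, a change of -1.87 ± 0.40 (SE; adjusted p = 0.427 by limma). The 3 egg arrays had 3050, 2469 and 4794. Its other probe sets changed by -1.60 and -0.40. HSP26.2 read 2084, 2837 and 4241 against 910.3, 854 and 1639. In contrast HSP17.4 read 3645, 1091 and 14892 in fertilized eggs and 5.07, 6834 and 1435 in zygotes, so zygote array 1 alone was low. Its change of -2.75 became -0.32 without that array. The list's median in zygote arrays 1, 2 and 3 was -0.64, 0.22 and -0.30, and it was -0.20 without zygote array 1. Of 18 heat stress factor genes kept, 9 lay above 0 and 9 below it. At an unadjusted p under 0.05, 2 (11.1%) were lower and 1 higher. HSF11 and HSF1 were the lower ones, with changes of -2.54 and -1.61. HSF07 was the higher one, at 1552, 3368 and 922 against 8017, 6546 and 3439. The HSP90-type genes HSP81-1, HSP81-2 and HSP81-3 had intervals from -1.02 to 0.64, from -0.40 to 1.23 and from -0.43 to 1.62.

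Redox enzymes had 66 genes kept, with a median of -0.27. At an unadjusted p under 0.05, 6 (9.09%) were lower and 1 (1.52%) higher, against 5.12% and 2.28% of all genes. APX1, an ascorbate peroxidase, read 14892, 18702 and 25761 against 14800, 7690 and 6929. AOX1, the alternative oxidase of mitochondria, read 2057, 2089 and 3874 against 1205, 919.8 and 1234. OsPDIL2-3, a disulfide isomerase-like gene, read 3082, 1752 and 2397 in fertilized eggs and 653, 848 and 1097 in zygotes, a change of -1.46 ± 0.40 (SE; adjusted p = 0.554 by limma). All 3 genes were lower in every zygote array than in every fertilized egg array. GRXC3, a glutaredoxin, was the 1 gene higher, at 84.3, 5.59 and 10.2 against 135, 848 and 338. Its change was 3.26, or 2.63 without zygote array 2. GRXC3 passed the filter for dim probe sets only through its zygote signals. The metallothioneins, small proteins that bind metals, split. MT2C read 11054, 8549 and 6592 against 12089, 25990 and 31711 with all 5 probe sets above 0 (changes of 0.93 to 1.33). MT-2 read 12571, 9218 and 14131 against 5128, 5381 and 4516, a change of -1.24 ± 0.31 (SE), while another of its probe sets changed by 0.08.

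The 2 genes named MET1, which encode the methyltransferases that copy CG methylation onto new DNA, stood on opposite sides. MET1/LOC4342575 read 2687, 2806 and 1772 in fertilized eggs and 4213, 4947 and 6490 in zygotes, a change of 1.11 ± 0.35 (SE; adjusted p = 0.594 by limma). MET1/LOC4334435 read 923, 661 and 274 against 224, 259.7 and 67.8, a change of -1.69 with a 95% interval from -3.20 to -0.18. Its unadjusted p by limma was 0.155, 0.107 or 0.114 without fertilized egg array 1, fertilized egg array 2 or zygote array 3. Neither gene's groups overlapped. The other 24 genes on the list of small RNA, DNA methylation and Polycomb genes had no unadjusted p under 0.05. AGO1B and AGO4A, Argonautes that carry small RNAs, were named for their bright probe sets and had intervals from -1.29 to 0.82 and from -0.78 to 0.75.

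Further named genes higher in zygotes had no overlap with fertilized eggs. The yellow stripe-like metal transporter gene osysl12 read 2227, 1542 and 1123 in fertilized eggs and 3334, 28852 and 17213 in zygotes, a change of 2.90 ± 0.64 (SE; adjusted p = 0.436 by limma). Its other probe set changed by 1.83, and the change was 3.82 without zygote array 1 and 2.26 without zygote array 2. CCR1, a cinnamoyl-CoA reductase of lignin synthesis, read 110.1, 493 and 197 against 2253, 1016 and 1205. OsWRKY76, a WRKY transcription factor, read 685, 471 and 449 against 1616, 1211 and 3566, a change of 1.84 ± 0.48 (SE), and egg arrays read 125, 680.0 and 124. These 3 genes had lower signals in fertilized eggs than in any zygote array. The zinc finger gene OsC3H37 read 3382, 6588 and 3006 against 25294, 6947 and 14406, so its groups nearly met in zygote array 2. The gene cap2 changed by 2.87 from signals of 39.4 to 74.5 in fertilized eggs, and by 2.09 without zygote array 1.

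For 4 more of the higher genes another probe set disagreed. ADA2, a transcriptional adaptor of histone acetyltransferase complexes, changed by 1.59 on one probe set and by 0.12 on the other. ADC1, the arginine decarboxylase of polyamine synthesis, had 1.73 on one and 0.00 on the other. TUB4, a beta-tubulin, had 1.42 and -0.29, and OsVDAC6, a mitochondrial channel, had 2.20 and 0.07. The probe sets named here, and that of OsPP2C45, are the dimmer ones of their genes, as they were taken by smallest p.

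Kinases and metabolic enzymes made up much of the rest of the lower group. OsWNK4, a WNK kinase, read 7870, 7158 and 11106 in fertilized eggs and 3009, 3065 and 2746 in zygotes (8711 ± 2104 and 2940 ± 170, SD, n = 3), a change of -1.54 ± 0.32 (SE; adjusted p = 0.422 by limma). Its egg arrays read 8703, 6224 and 7813, close to fertilized eggs. CIPK21, a kinase that calcineurin B-like calcium sensors activate, read 3305, 3190 and 2021 against 989, 652 and 852. MPK10, a MAP kinase, read 1016, 1008 and 1710 against 484, 174 and 273. The zygote values of these 3 kinases lay below all fertilized egg values, as the naming rule required. Cyt-RPEase, the cytosolic ribulose-phosphate epimerase of the pentose phosphate pathway, read 16442, 13086 and 12968 against 7032, 6578 and 5014. GAPC, the cytosolic glyceraldehyde-3-phosphate dehydrogenase, read 21455, 18419 and 15917 against 12568, 7531 and 9621, a change of -0.93. Both enzymes were lower in every zygote array. ADF-1, an actin-severing factor, read 2427, 2658 and 13224 against 375, 217 and 1353, where fertilized egg array 3 was highest.

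**Figure D2:**
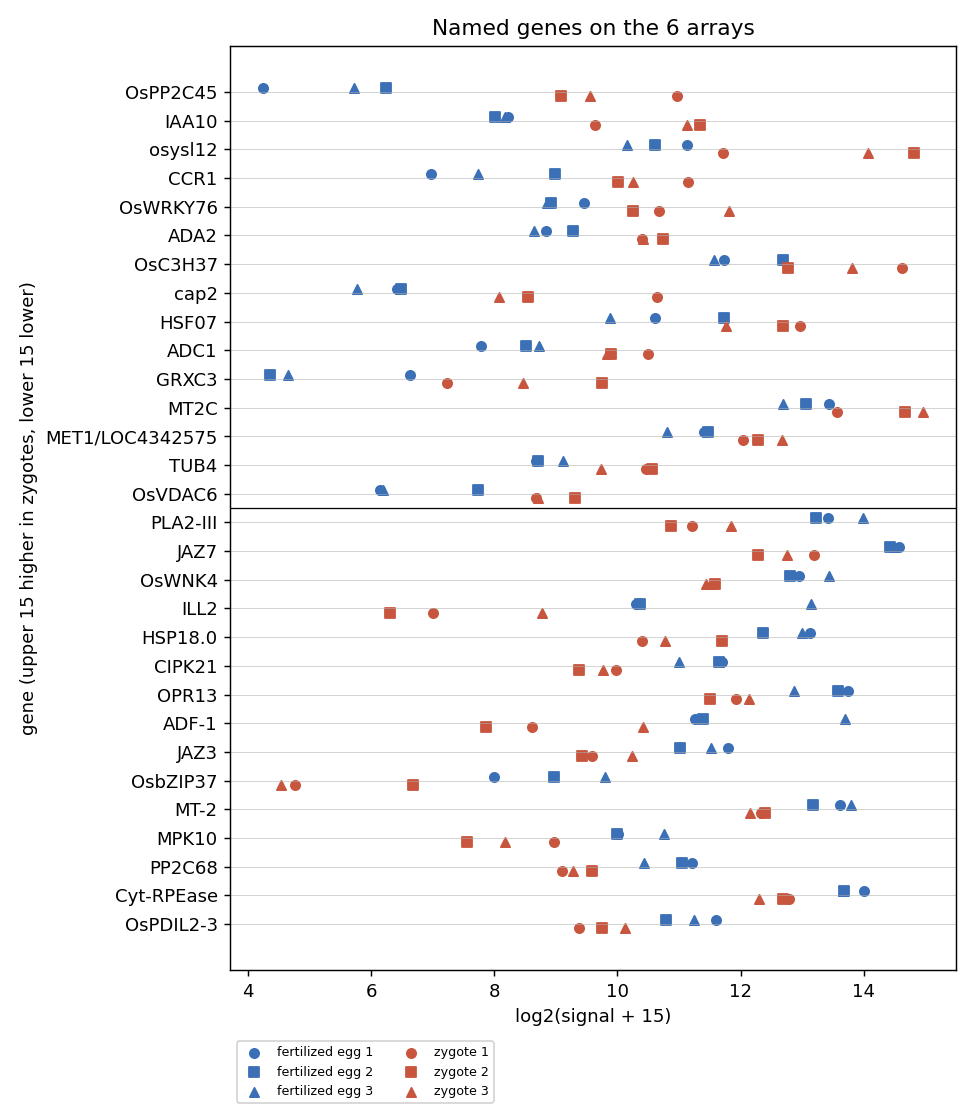
Signal on each of the 6 arrays (x axis, log2(signal + 15)) for the 15 named genes higher and the 15 lower in zygotes (y axis), circles, squares and triangles for arrays 1, 2 and 3. The stages do not overlap for any gene because the naming rule required it, and the fitted change is largest in size for OsPP2C45 (4.47) and ILL2 (-3.91).

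**Figure D3:**
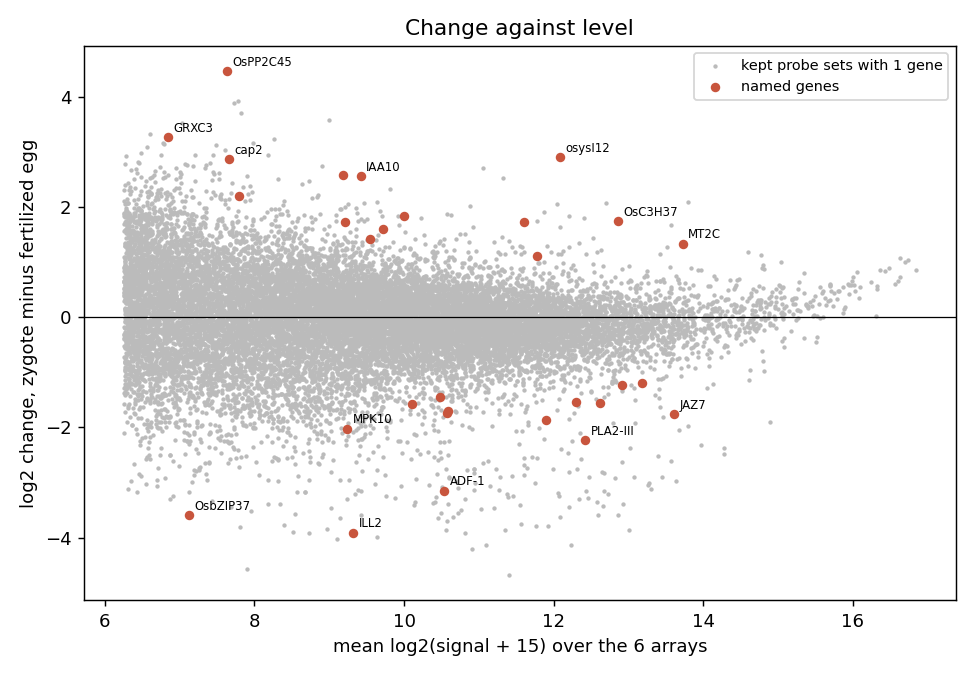
Change (y axis, log2, zygote minus fertilized egg) against mean level over the 6 arrays (x axis, log2(signal + 15)) for kept probe sets with 1 gene, named genes coloured. The scatter narrows with level, and JAZ7 at -1.76 and MT2C at 1.33 lie at the bright end of the labelled genes.

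Lists of division and growth genes had few or no genes at an unadjusted p under 0.05. Over all genes 2.28% were higher and 5.12% lower, so low counts in lists of this size say little about these genes. Of 29 DNA replication genes 0 were higher and 0 lower at an unadjusted p under 0.05, with a median of -0.02. OsPCNA, the sliding clamp of DNA polymerase, read 5538, 6141 and 6702 in fertilized eggs and 6083, 8330 and 6618 in zygotes, with a 95% interval of the change from -0.48 to 0.85. MCM5, a subunit of the replicative helicase, had an interval from -0.22 to 1.58. None of the 8 genes of core histones and their chaperones had an unadjusted p under 0.05, with a median of 0.25, and H2B.5 and H2B.6 had intervals from -0.45 to 1.08 and from -0.79 to 0.51. Among 46 cyclins, cell cycle kinases and inhibitors, 1 (2.17%) was higher and 2 (4.35%) lower at an unadjusted p under 0.05. CYCP4-1 was higher and CDC25.1 and CYCL1-1 lower, with changes of 1.22, -1.10 and -0.87. Without zygote array 2 CYCP4-1 had 1.05 (unadjusted p of 0.0757 by limma) and CDC25.1 had -0.53 (unadjusted p of 0.115 by limma), and without zygote array 1 CYCL1-1 had -0.56 (unadjusted p of 0.165 by limma). The 56 spindle, cytokinesis and cytoskeleton genes had a median of -0.18. At an unadjusted p under 0.05, 0 were higher and 3 (5.36%) lower, the latter near the 5.12% of all genes. The 22 ribosomal proteins kept had a median of 0.03, and the 25 proteasome and ubiquitin genes had 0.06, with 0 genes of either list at an unadjusted p under 0.05. ACT1, the actin gene, read 35851, 23480 and 31107 against 27771, 31402 and 26749, with an interval from -0.74 to 0.63. Karyogamy in other organisms needs chaperones of the endoplasmic reticulum such as BiP. BIP1 and ERDJ3A, of this class, had intervals from -1.53 to 0.18 and from -1.20 to 0.37, and 0 of the 7 genes kept on that list had an unadjusted p under 0.05.

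Embryo regulators and markers of other cells were read on the same arrays. Of 41 homeobox and embryo regulator genes kept, 1 (2.44%) was higher and 5 (12.2%) lower at an unadjusted p under 0.05, against 2.28% and 5.12% of all genes, with a median of -0.05. OSH1, a homeobox gene of the shoot meristem, read 218, 96.2 and 186 in fertilized eggs and 298, 441 and 920.0 in zygotes, a change of 1.56. OsWOX13, of a homeobox family active in early embryos, read 179, 316 and 210.1 against 422, 456 and 302, with an interval from -0.52 to 1.97. HOS59 and Roc6 were lower by unadjusted p, with changes of -1.98 and -2.45. Both were lowest on zygote array 2, and without it their changes were -0.95 (unadjusted p of 0.0333 by limma) and -0.86 (unadjusted p of 0.0546 by limma). Among markers of other tissues, 1 of 15 photosynthetic genes was higher and 2 lower, 1 of 6 anther and pollen genes was lower, and 0 of 7 endosperm and 0 of 10 ovule wall genes had an unadjusted p under 0.05. The anther gene was MTR1, at 5741, 7328 and 6282 against 3873, 2216 and 2982. The median signal of the photosynthetic list was 389 to 795 on fertilized egg arrays and 368 to 553 on zygote arrays, that of the anther and pollen list 1124 to 1541 and 1072 to 1283, that of the endosperm list 343 to 1080.2 and 224 to 1064, and that of the ovule wall list 1511 to 2700.3 and 2286 to 2372. No sperm cell gene was on the lists, so the sperm cells named in the free-text label were not checked by a marker. The part of other cells in the stage differences was not tested.

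**Figure D4:**
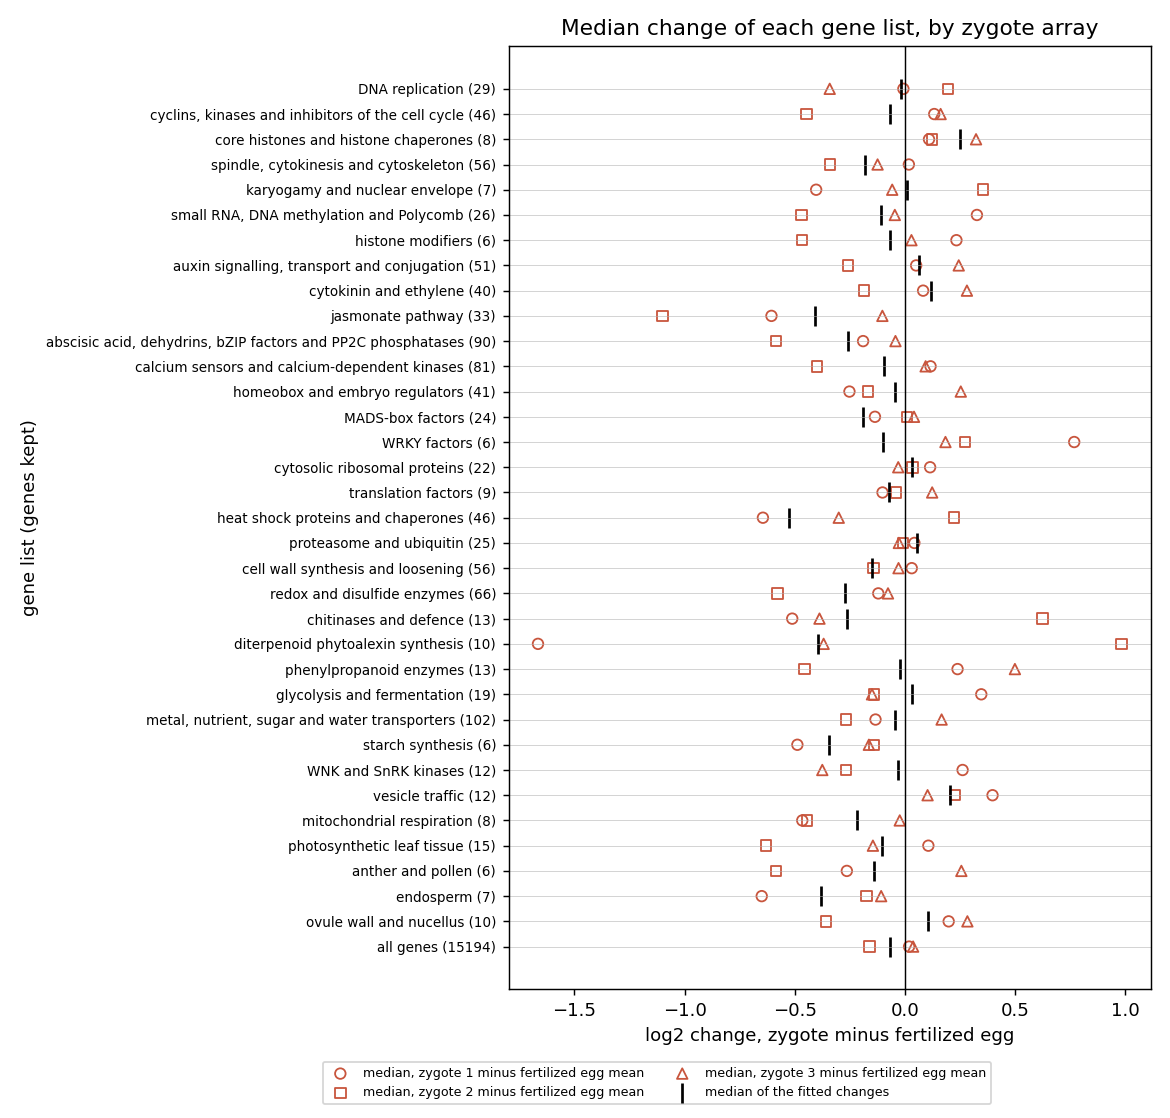
Median log2 change (x axis) of each gene list (y axis, number of genes kept) in zygote arrays 1, 2 and 3 against the fertilized egg mean (open symbols) and of the fitted changes (bars). All 3 arrays lie below 0 for the jasmonate list (-0.61, -1.10 and -0.10), while for phytoalexin synthesis they run from -1.67 to 0.98.

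A block of transcripts was near the bottom of the scale on zygote array 1 alone. It was found after the values were seen and is given without a test. On zygote array 1, 59 probe sets read under 100 while all other 5 arrays read over 1000, and the same was true of 35 probe sets on zygote array 2 and of 0 on each of the other 4 arrays. All 59 had their highest fertilized egg signal on array 3. In 55 of the 59 all 3 egg arrays read over 100, and in 10 all egg arrays read under 1000. EXPB9, a beta-expansin of the class that includes grass pollen allergens, was also lowest on zygote array 1, at a signal above 100 and so outside this rule. It read 39223, 25728 and 101500 in fertilized eggs and 838.5, 24142 and 28284 in zygotes, with 21207, 11017 and 11550 in eggs. Its relative EXPB10 read 313, 146 and 541 against 2.35, 46.9 and 48.0, and its change went from -2.92 to -2.30 without zygote array 1.

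Several calcium-dependent kinases, which relay calcium signals, belonged to this block or followed it. CPK29 read 17184, 10566 and 53388 in fertilized eggs and 90.7, 6509 and 8152 in zygotes, with 7237, 1932 and 4065 in eggs. CPK22 read 4006, 3274 and 14996 against 32.0, 2162 and 2782, and CPK2 read 3047, 3828 and 10541 against 32.0, 669.9 and 1939. Zygote array 1 was lowest and fertilized egg array 3 highest for each of the 3. The calcium list had 81 genes kept, 8 (9.88%) lower and 2 (2.47%) higher at an unadjusted p under 0.05, against 5.12% and 2.28% of all genes. Of the 8 lower genes, CPK2, CPK21, CPK22, CPK29, CIPK5, CIPK30 and CML32 had their lowest signal on zygote array 1, and CIPK21 on array 2. CML8 and CIPK17 were the higher ones, with changes of 1.51 and 0.89, and without zygote array 2 their unadjusted p was 0.0762 and 0.0851. Without zygote array 1, the change of CPK29 went from -3.58 to -1.55, that of CPK22 from -3.15 to -1.24 and that of CPK2 from -3.65 to -2.11. CIPK5 and CIPK30 went from -3.15 and -3.27 to -1.86 and -1.76, and CPK21 and CML32, at -0.92 and -1.01, had an unadjusted p of 0.121 and 0.166. Without fertilized egg array 3 CPK29, CPK22 and CIPK30 had changes of -2.92, -2.46 and -2.56 (unadjusted p of 0.0676, 0.0997 and 0.052 by limma). CPK2 and CIPK5 stayed under 0.05 without it, and CPK21 and CML32 had 0.156 and 0.247.

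Transport and glycolysis genes held further cases. OsSWEET5, a sugar transporter, read 16665, 14262 and 66883 in fertilized eggs and 184, 7096 and 9844 in zygotes. The yellow stripe-like gene osysl7 read 14483, 16758 and 92541 against 175, 14164 and 16080.0. FBA2, a fructose-bisphosphate aldolase, read 4206, 3670 and 10793 against 30.1, 1307 and 1256, while FBA1 and FBA3 had intervals from -0.13 to 1.88 and from -0.34 to 1.27. Without zygote array 1 the changes were -1.59 for OsSWEET5, -0.90 for osysl7 and -2.09 for FBA2, against -3.39, -3.01 and -3.70 with it. EXPB9 went from -2.49 to -0.84. All 5 of the other arrays placed these transcripts well above zygote array 1, so that array enlarged the measured stage difference of each. Fertilized egg array 3, the highest, enlarged them too. Without it the changes were -2.68 for OsSWEET5, -2.15 for osysl7, -3.22 for FBA2 and -1.93 for EXPB9. OsSWEET5 had an unadjusted p by limma of 0.0160 without zygote array 1 and of 0.0600 without fertilized egg array 3.

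A second set within the block differed in the egg arrays. The chitinase genes Cht4 and chia4a, which cleave chitin of fungal walls, read 2420, 4529 and 15848 and 4912, 2747 and 12457 in fertilized eggs. In zygotes Cht4 read 4.62, 3711 and 4529 and chia4a read 33.9, 6216 and 2430. Eggs had 20.8 to 74.8 for Cht4 and 45.0 to 129 for chia4a. Zygote array 1 thus lay below every egg array in both genes, while zygote arrays 2 and 3 lay far above eggs and near fertilized eggs. HSP17.4 and HSP18.6 were also below eggs on zygote array 1, at 5.07 and 53.6 against 148 to 240.3 and 282 to 933. HSP18.6 read 7099, 4074 and 20107 in fertilized eggs and 16236 and 1367 on zygote arrays 2 and 3, so array 3 lay between the egg and the fertilized egg arrays. The phytoalexin list, of diterpenoid antifungal compounds, had a median of -1.67 in zygote array 1 and 0.98 in zygote array 2. Without zygote array 1, Cht4 went from -3.02 to -0.44 and chia4a from -2.61 to -0.50, and their unadjusted p was 0.478 and 0.401.

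**Figure D5:**
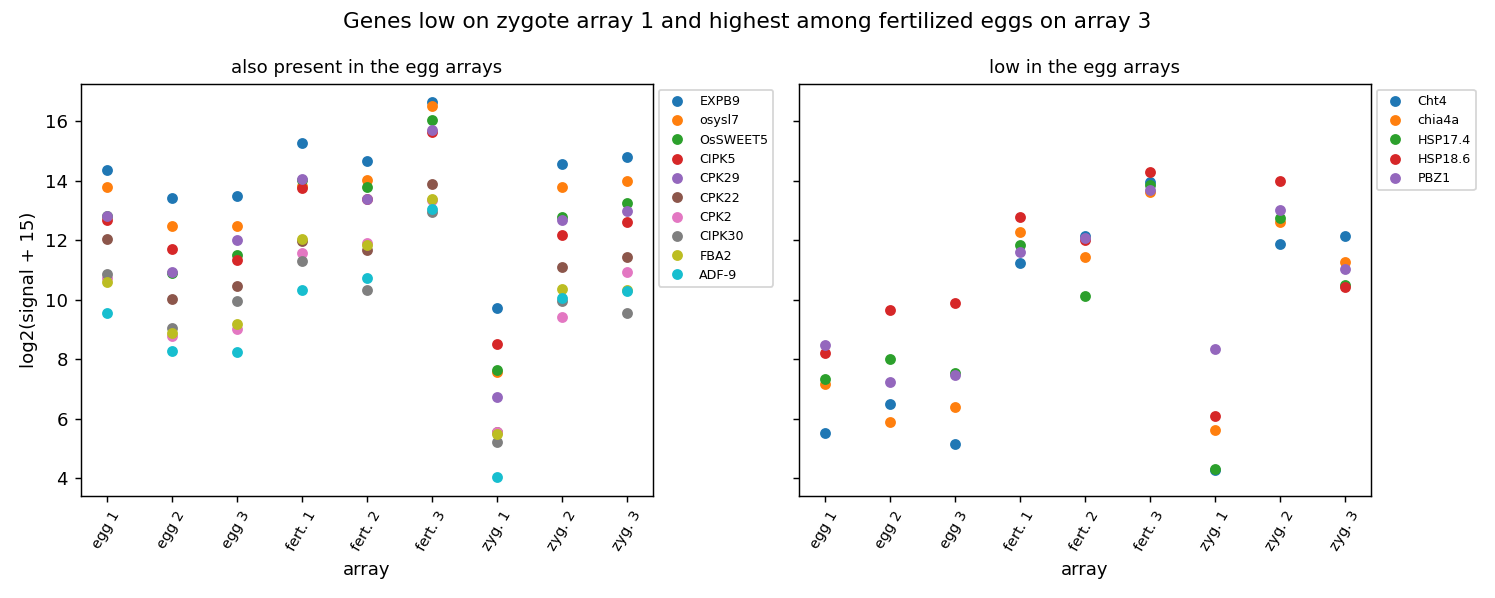
Signal (y axis, log2(signal + 15)) on the 9 arrays (x axis) of 10 genes seen in eggs (left) and 5 genes low in eggs (right), 1 colour per gene. Every gene is lower on zygote array 1 than on zygote arrays 2 and 3 and is highest on fertilized egg array 3 among fertilized eggs, with EXPB9 at 838.5 and 101500.

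Zygote array 2 had losses of its own among other genes. Of its 35 probe sets 28 pair with 1 gene, and all 3 egg arrays read over 100 in all 35. Roc6, a homeobox gene of the epidermis, read 3541, 2451 and 3051 in fertilized eggs and 1102, 45.8 and 2420 in zygotes. CDKF-1, a kinase that activates cyclin-dependent kinases, read 1054, 1277 and 1303 against 1867, 61.9 and 1631. In CDKF-1 zygote arrays 1 and 3 lay above all fertilized egg arrays and array 2 below them. The spike ratio (log2 poly-A spike over hybridization spike) was -2.47 on zygote array 1 and -4.44 and -4.78 on zygote arrays 2 and 3, against -4.58 to -3.68 on fertilized egg arrays. The 3′ to 5′ signal ratio (log2) of actin, cyclophilin and GAPDH was 5.93 on zygote array 1, the lowest of the 6, and 8.15 on array 2. On fertilized egg array 3 it was 8.62. The part of these array measures in the losses was not tested.

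A fit that gives noisier arrays less weight called some of these genes. The weights were 1.65, 3.07 and 0.730 for the fertilized egg arrays and 0.585, 0.257 and 1.80 for the zygote arrays. With them limma called 74 of 28597 probe sets (0.259%), 29 higher (0.101%) and 45 lower (0.157%), by 2.75-fold to 31.2-fold. In 72 of the 74 the stages did not overlap in signal, against 12.7% of all kept probe sets. A call on 3 against 3 arrays makes such separation likely, so it adds no support. Of the 74, 49 pair with 1 gene and 15 have an informative name, 5 higher and 10 lower. The 5 higher were osysl12, IAA10, OsPP2C45, OsWRKY76 and MT2C (a different probe set from the one above). JAZ7, HSP18.0, OsbZIP37, PLA2-III, CIPK21, APG4A, OsWNK4, OPR13, ARF2/LOC4325895 and PP2C68 were the 10 lower. OsPP2C45 and OsbZIP37 had passed the filter only through the stage in which they read high. JAZ7 had -1.68 ± 0.27 (SE; adjusted p = 0.0195 by limma with weights) and PLA2-III had -1.77 ± 0.31 (adjusted p = 0.0259). IAA10 had 2.72 ± 0.42 (adjusted p = 0.0153) and osysl12 had 2.92 ± 0.43 (adjusted p = 0.0148). APG4A, an autophagy protease gene, read 988, 1387 and 601 in fertilized eggs and 454, 286 and 107 in zygotes, with -2.66 ± 0.51 (adjusted p = 0.0376). None of the 59 probe sets low on zygote array 1 was among the 74. In this fit 46 of the 59 had an unadjusted p under 0.05, as did 3822 of all 28597. The rule that chose the 59 lowers their zygote mean, which works for a small unadjusted p. It also makes their spread within zygotes wide, which works against a call. Neither count is therefore a result about these probe sets.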

How the data were processed

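Signal intensities were deposited by the authors for 9 arrays, and the submitters' processing notes name MAS5 for them (version not given in the sources used here). Each array's deposited intensity values had a trimmed mean of 500.1, so scaling fixes the average and not the amount of RNA. No detection calls were used here, and low signals were not judged against background. Of 57381 probe sets, 123 Affymetrix controls and 64 reporters were left out. From the rest log2(signal + 15) was computed, and the 28597 at or above the median of the 6-array mean were kept. This filter can keep a probe set through a single stage and so favours a stage difference among dim ones. The named probe sets of OsPP2C45, GRXC3 and cap2 were kept only through zygotes. Those of OsbZIP37, RAB16B, IAA8 and EXPB10 were kept only through fertilized eggs. Fold changes on this scale understate those of dim probe sets.

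Limma 3.58.1 (R 4.3.3; lmFit, eBayes with trend) was fitted to the 6 arrays, with Benjamini-Hochberg adjustment over all kept probe sets and a threshold of 0.05. Array measures were compared by two-sided exact permutation. Tables were made with pandas 2.3.3 under Python 3.11.15 and figures with matplotlib 3.10.9. The test was checked on simulated data with changes planted in 50 probe sets per size. It recovered 0 of 50 at 2-fold, 4 at 4-fold, 18 at 8-fold and 35 at 16-fold. The count of 0 in the measured data therefore does not exclude changes of these sizes.

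GEO's platform annotation gave 1 gene for 22436 probe sets and several for 95. Names came from RefSeq symbols and synonyms of assembly ASM3414082v1, which held all 17905 genes, 2452 with an informative name. Genes sharing a name carry their gene identifier. Genes named are the 15 smallest p in each direction without overlap, and per list the 3 brightest and the 2 with the smallest p. Had any probe set passed the threshold, those would have been named first. Gene lists and rules were chosen with earlier results of these data known. Alternatives covered scaling, offset, filter, variance model, array weights, egg arrays in the fit, spike ratio as a covariate, replicate block and each array left out. The number of arrays limits the precision, and p-values measure the spread between these samples.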

Additional observations from a re-analysis of the deposited data

How the results depend on the processing

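The count of 0 probe sets past the threshold also came out with the egg arrays in the fit, quantile normalization, median centring, offsets of 1, 50 or 100, a stricter filter on dim probe sets, no trend and a robust variance model. It was 74 with array quality weights and 1 without the filter. With the spike ratio as a covariate it was 159, 11 higher and 148 lower, and 45 of the 59 probe sets low on zygote array 1 were among these. Leaving out 1 array gave 0 to 7, with 7 without zygote array 1 (3 higher, 4 lower) and 1 without zygote array 3. At an unadjusted p under 0.05 the count of 1874 became 3477 without zygote array 1, 1118 without fertilized egg array 1 and 1235 without fertilized egg array 2. It became 3006 with the egg arrays, 3822 with weights, 3191 without the filter and 1090 with the stricter filter. The split of 806 higher and 1068 lower became 160 and 1437 with median centring. Without the trend the split was 1080 and 748. All 30 named genes kept their direction in every setting that kept the probe set, and 13 passed the threshold in at least 1 setting. The naming rule required stages without overlap, so leaving out an array or changing the offset or filter could not reverse a direction. The median of jasmonate genes was below 0 in every setting, nearest to it without the filter (-0.18), and that of heat shock genes lay between -1.12 and -0.20.

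Replicate numbers are shared between stages. Deviations of same-numbered arrays from their stage means correlated at 0.14, -0.27 and 0.08, and those of differently numbered arrays at -0.36 to 0.33. With 3 arrays per stage these values cannot show whether same-numbered arrays shared plants or a batch. The fit with the replicate block called 0 probe sets, with a smallest adjusted p of 0.0541. Dim probe sets lie nearest to background, and no detection calls were used to judge them.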
